A study of Homo sapiens with 12 samples.

Results

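The genes described here encode the contents, the wall and the acid pump of the lysosome: 46 genes chosen by name, 36 for hydrolases, their activators and lysosomal membrane proteins and 10 for the vacuolar proton pump (V-ATPase) and its accessory subunits. The rule used their gene symbols and no measured value, but the list was chosen with earlier results of these data known. Shares of the members set beside those of all genes therefore only describe this list. Of the 19775 genes that have a probe set with a single gene symbol, 45 were members. The only probe set of GLB1 (beta-galactosidase) also carries the symbol of a neighbouring gene and was left unnamed. Each gene was read from its probe set of highest average level across the 12 arrays, and a gene was tested when its value was above 4 on the log2 scale on at least 2 arrays. By that filter 40 of the 46 members were among the 10561 genes tested, 31 of the 36 hydrolases and membrane proteins and 9 of the 10 pump genes. CTSL, SMPD1, SGSH, ARSA and ATP6V0A1 were at or under 4 on every array. Of the 40 tested members 38 were above 4 on all 12 arrays, and CTSH and CTSZ on fewer.

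The cells were 2 established human acute lymphoblastic leukaemia lines, SEM-K2 and RS4:11, both carrying the KMT2A-AFF1 (MLL-AF4) fusion. Each line was exposed for 6 h to vehicle, to obatoclax at its 72 h EC50, or to obatoclax at 3 times that EC50 (3xEC50). Obatoclax is a small molecule that binds the antiapoptotic proteins of the BCL2 family. Each of the 6 groups has 2 arrays (Affymetrix U133 Plus 2), 12 in all. Doses are given only as multiples of the EC50, so a dose in one line need not be the same concentration in the other. The series' design text calls the 2 arrays of a group biological replicates and does not say whether they were grown or treated on separate days, so p-values measure only the spread between these arrays. In such bulk samples fewer cells of a type and less RNA per cell cannot be told apart.

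The lysosome digests proteins, glycans and lipids delivered by endocytosis and autophagy. Its soluble hydrolases work at acid pH, which the V-ATPase maintains by driving a membrane sector (V0) that moves protons with a soluble sector (V1) that splits ATP. Many lysosomal genes share a promoter element, the CLEAR element, an E-box with fixed flanking bases that the transcription factors TFEB, TFE3 and MITF bind. When these factors move to the nucleus, genes of this network are transcribed together.

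Promoters of 33 of the 46 members were found in the RefSeq promoter table (GRCh38.p14, 250 bases before to 50 after the annotated start). The 8 central letters of the CLEAR element, TCACGTGA, stood in promoters of 6 of the 33 (18.2%): CTSA, GAA, LAMP1, MCOLN1, CLN3 and ATP6V0D1. They stood in 0.980% of all 35116 promoters in the table and in 2.51% of the 8729 tested genes that have a promoter there. The E-box inside it, CACGTG, was in 9 of the 33 (27.3%), the same 6 and CTSD, NEU1 and CD63, against 7.26% of all promoters and 13.2% of the tested genes. Both motifs read the same on either strand, every 8-letter match contains the E-box, and a match is a description of the letters, not of binding. The promoters below are those that hold the core, those of 2 members given on every array below that hold the E-box alone (NEU1 and CTSD), and that of GM2A, a called member with neither motif. Each is printed 5′ to 3′ on the strand of the gene with the motif in capitals. NEU1 lies at chr6:31862772-31863071 (minus strand), GM2A at chr5:151252935-151253234 (plus strand) and LAMP1 at chr13:113296989-113297288 (plus strand). For the others the 100 bases before to 50 after the start are given: CTSD at chr11:1763878-1764027 (minus), CTSA at chr20:45891235-45891384 (plus), GAA at chr17:80101481-80101630 (plus), MCOLN1 at chr19:7522524-7522673 (plus), CLN3 at chr16:28492025-28492174 (minus) and ATP6V0D1 at chr16:67481108-67481257 (minus).
NEU1: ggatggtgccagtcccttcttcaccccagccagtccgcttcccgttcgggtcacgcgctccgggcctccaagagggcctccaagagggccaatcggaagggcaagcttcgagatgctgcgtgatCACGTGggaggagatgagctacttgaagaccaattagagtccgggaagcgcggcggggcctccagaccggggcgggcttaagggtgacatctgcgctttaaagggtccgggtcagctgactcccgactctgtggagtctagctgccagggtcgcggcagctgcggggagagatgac
CTSD: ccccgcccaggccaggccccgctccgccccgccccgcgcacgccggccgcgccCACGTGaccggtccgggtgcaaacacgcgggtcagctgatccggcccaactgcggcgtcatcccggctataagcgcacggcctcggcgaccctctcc
CTSA: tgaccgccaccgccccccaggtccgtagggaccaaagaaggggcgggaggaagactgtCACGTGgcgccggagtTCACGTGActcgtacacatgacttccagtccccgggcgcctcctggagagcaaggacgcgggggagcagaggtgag
GAA: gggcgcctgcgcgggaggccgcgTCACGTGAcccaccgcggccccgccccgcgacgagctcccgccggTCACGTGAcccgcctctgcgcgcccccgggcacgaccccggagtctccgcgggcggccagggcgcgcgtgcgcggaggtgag
LAMP1: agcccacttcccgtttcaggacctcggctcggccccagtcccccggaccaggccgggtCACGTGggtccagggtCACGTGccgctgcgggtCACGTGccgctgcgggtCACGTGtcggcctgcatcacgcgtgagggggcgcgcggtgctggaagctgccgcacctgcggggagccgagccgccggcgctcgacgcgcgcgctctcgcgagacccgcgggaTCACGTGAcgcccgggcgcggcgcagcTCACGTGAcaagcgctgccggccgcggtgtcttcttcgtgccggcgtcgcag
MCOLN1: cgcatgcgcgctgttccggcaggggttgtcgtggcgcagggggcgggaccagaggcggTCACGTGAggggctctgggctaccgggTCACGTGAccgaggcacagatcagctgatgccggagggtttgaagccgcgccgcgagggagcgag
CLN3: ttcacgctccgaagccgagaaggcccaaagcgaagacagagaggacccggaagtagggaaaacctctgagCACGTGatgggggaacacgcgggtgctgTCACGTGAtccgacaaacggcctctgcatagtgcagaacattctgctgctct
ATP6V0D1: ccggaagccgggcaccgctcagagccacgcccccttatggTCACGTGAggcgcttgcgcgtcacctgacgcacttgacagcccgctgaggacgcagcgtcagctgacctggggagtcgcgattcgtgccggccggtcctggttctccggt
GM2A: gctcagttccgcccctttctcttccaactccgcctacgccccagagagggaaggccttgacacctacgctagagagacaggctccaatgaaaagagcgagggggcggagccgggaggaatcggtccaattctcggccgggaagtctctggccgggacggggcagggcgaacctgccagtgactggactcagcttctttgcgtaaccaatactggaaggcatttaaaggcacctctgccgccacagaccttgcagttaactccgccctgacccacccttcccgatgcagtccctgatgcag
The promoters of LAMP1, MCOLN1 and GAA each hold 2 copies of the 8-letter core, and LAMP1 has 4 further E-boxes upstream. The core of CTSA begins 26 bases before the start and that of ATP6V0D1 60 bases before it. NEU1 and CTSD hold a single E-box with 1 of the 2 flanking bases of the core, at 126 and 47 bases before the start. GM2A holds neither motif in this window.

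**Figure D1:**
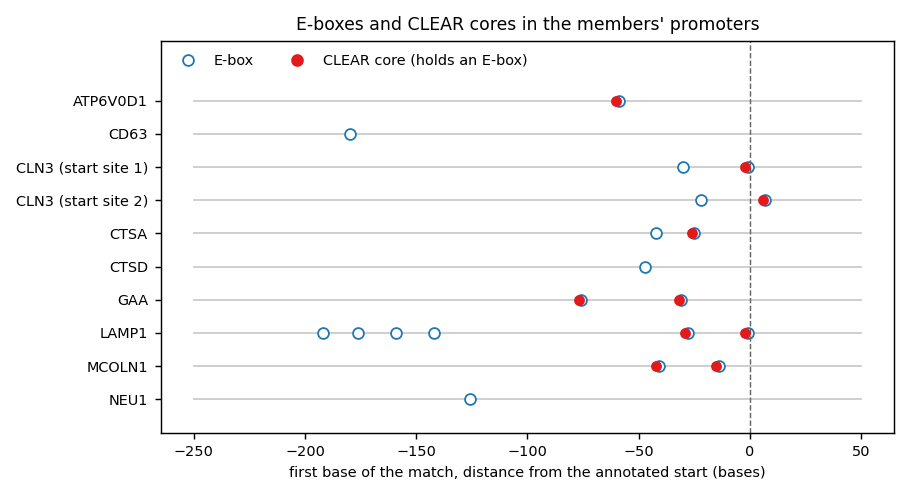
Matches to the E-box (open blue circles) and to the 8-letter CLEAR core (red circles) in the promoters of the 9 members that hold one, by distance in bases of the first matched base from the annotated start (dashed line at 0). Grey lines span the 250 bases before to 50 after the start, and CLN3 has 2 annotated starts. All cores lie within 77 bases of the start, while the lone E-box of NEU1 lies 126 bases and that of CD63 180 bases upstream.

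The arrays were alike in overall level, with 41.7 to 42.8% of probe sets above 4 on each. Of the 12 arrays 2 stood apart. In the second SEM-K2 3xEC50 array the 3′ probe set of ACTB exceeded the 5′ probe set by 1.97 on the log2 scale (0.87 to 1.23 on the other 11 arrays), a difference that widens as RNA is degraded. In the first RS4:11 vehicle array the 18S rRNA probe set read 9.85 (at most 6.98 elsewhere). Of 10 B cell precursor markers 9 were measured, all 9 above 4 on every RS4:11 array and 7 on every SEM-K2 array. Of 11 monocyte and macrophage markers, cells rich in lysosomes, only CSF1R passed 4 on any array, and the summed linear level of the list was 134 to 160 on all 12 arrays. Of 6 T and NK cell markers NKG7, a granule protein, alone passed 4 on any array, and CD3D, CD3E, CD2, CD8A and GNLY did not. NKG7 was higher in each replicate number of treated SEM-K2 than in vehicle: it read 8.33 and 7.06 in vehicle, 9.27 and 8.53 at EC50 and 9.49 and 7.99 at 3xEC50, where the arrays overlapped with vehicle. The summed linear level of that list was 156 to 343 in SEM-K2 vehicle, 393 to 640 at EC50 and 275 to 743 at 3xEC50, and 647 to 1034 over the RS4:11 arrays. Of 3 erythroid and megakaryocyte markers ITGA2B alone passed 4, and of 6 fibroblast and epithelial markers COL1A1 and KRT8. The part of these markers, NKG7 included, and of the 2 arrays in the results was not tested, beyond the values without each array given below.

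After obatoclax most lysosomal members were higher than in vehicle, and more so in SEM-K2. At 3xEC50 in SEM-K2, 37 of the 40 tested members had a change above 0. Their median was 0.48 on the log2 scale, and that of all genes tested was 0.06. At EC50 in SEM-K2 the count was 34 of 40 and the median 0.29 (all genes 0.05). In RS4:11 the median was 0.13 at 3xEC50 (33 of 40 above 0) and 0.17 at EC50 (34 of 40), with 0.02 over all genes at either dose. These counts include CTSH, whose SEM-K2 arrays were all under 4. The medians of the 9 pump genes lay close to those of the 31 others. They were 0.42 against 0.49 at 3xEC50 and 0.30 against 0.27 at EC50 in SEM-K2, and 0.13 against 0.13 and 0.14 against 0.17 in RS4:11. Single vehicle arrays moved these medians. Without the second SEM-K2 vehicle array the pump median was 0.16 at 3xEC50 and 0.18 at EC50 in SEM-K2. For the hydrolases and membrane proteins in RS4:11 the median at 3xEC50 was 0.06 without the second vehicle array and 0.23 without the first, and at EC50 it was 0.26 without the first. The RS4:11 pump median at 3xEC50 was 0.24 without the first 3xEC50 array. These values are descriptions with no test of the set, and the doses of one line share its vehicle arrays.

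**Figure D2:**
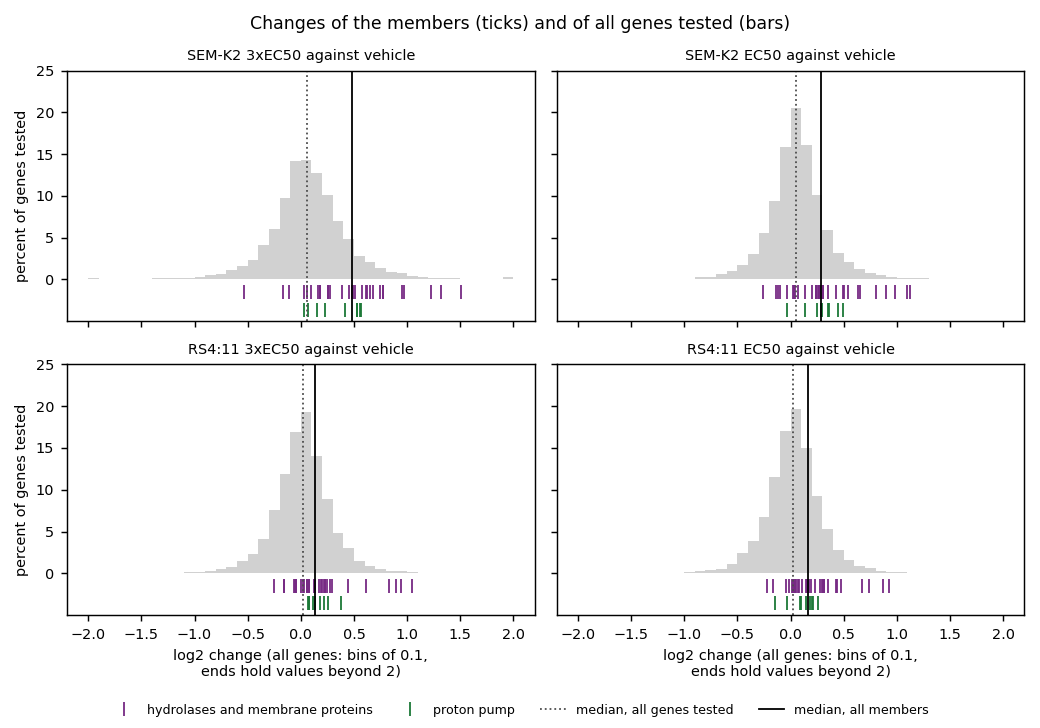
Log2 change against the vehicle of the same line for all 10561 genes tested (grey bars, percent of genes in bins of 0.1) and for each member (purple ticks, hydrolases and membrane proteins, and green ticks, proton pump). The solid line is the median of the 40 members (0.48, 0.29, 0.13 and 0.17 in reading order) and the dotted line that of all genes (0.06, 0.05, 0.02 and 0.02), so the gap between the lines is widest in the upper left panel, SEM-K2 at 3xEC50.

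Single genes passed the test in SEM-K2 at 3xEC50, where 3 of the 40 members were called higher by limma at an adjusted p under 0.05 (7.5% of those tested, against 0.625% of all genes): NEU1, GM2A and ASAH1. No member was called lower (0.199% of all genes). At an unadjusted p under 0.05, 18 members were higher (8.1% of all genes), and 1, CTSC, was lower (3.58% of all genes). At EC50 in SEM-K2 no member was called in either direction (0.114% of all genes called higher and 0.0568% lower), with 8 higher at an unadjusted p under 0.05 (3.97% of all genes). In RS4:11 no gene of the 10561 was called at either dose (0%), and 4 members were higher at an unadjusted p under 0.05 at 3xEC50 and 4 at EC50, against 2.53% and 2.47% of all genes. With the replicate number as a block, 5 members were called higher in SEM-K2 at 3xEC50 (1.55% of all genes), the same 3 with CTSB and NPC2.

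**Figure D3:**
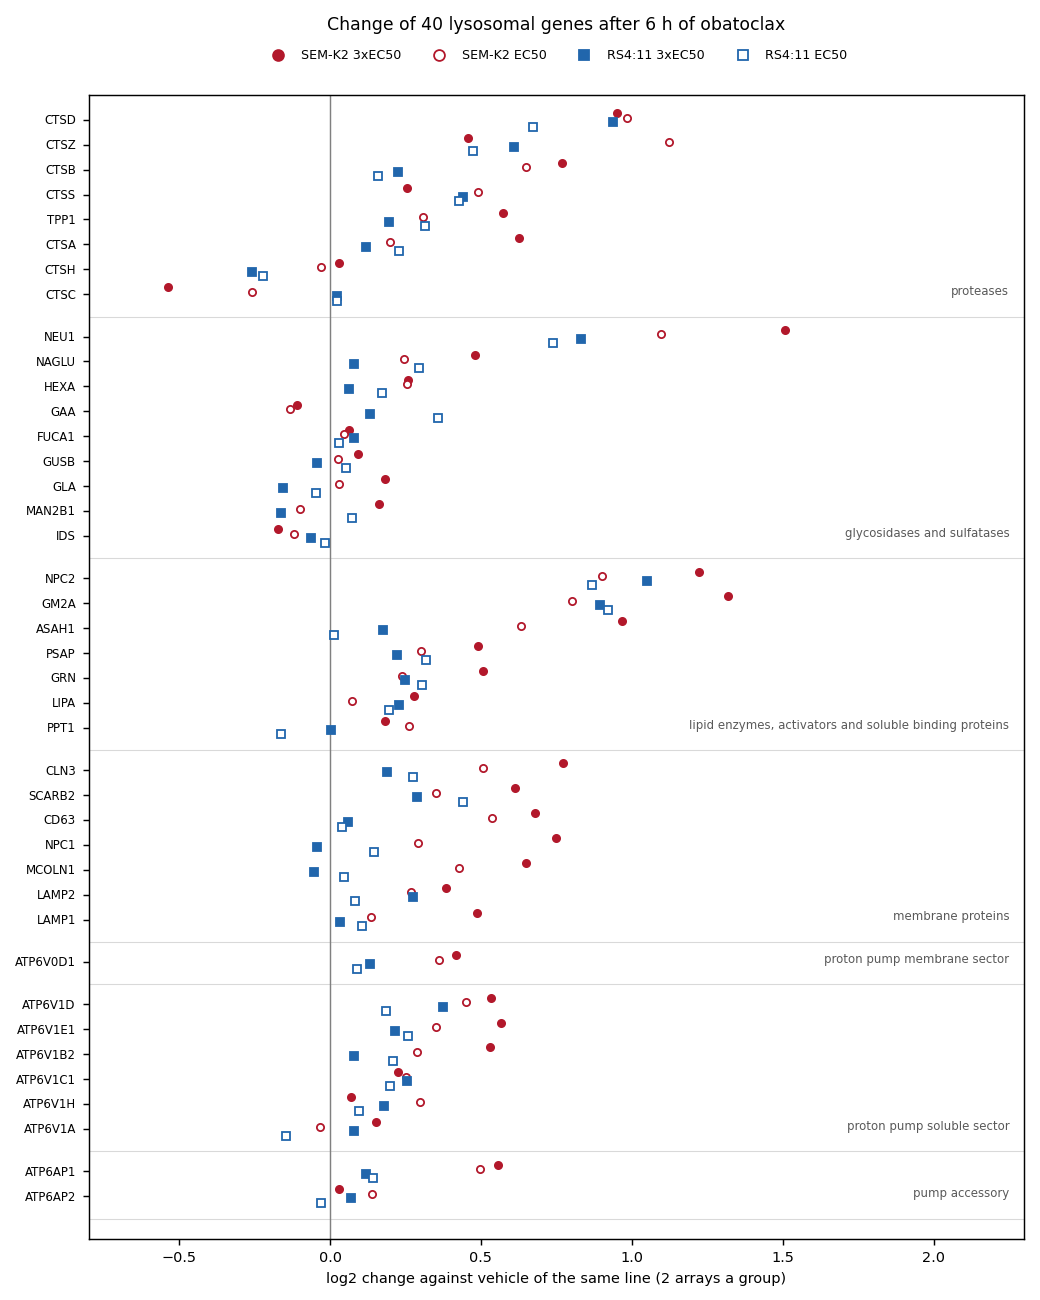
Log2 change against the vehicle of the same line (x axis) for each of the 40 tested members (rows, grouped by role and sorted by the mean of the 4 changes), with SEM-K2 as red circles and RS4:11 as blue squares, filled for 3xEC50 and open for EC50. NEU1, NPC2, GM2A and CTSD lie to the right of 0 by 0.67 or more for every symbol, while most glycosidases lie near 0 and CTSC lies at -0.54 in SEM-K2 at 3xEC50.

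Averaged over both lines and both doses, 8 treated arrays against 4 vehicle arrays, 36 of the 40 members were above 0 and the median was 0.28 (0.04 over all genes). NEU1 and GM2A were called higher, 2 of 40 against 0.644% of all genes, and no member was called lower (0.189%). At an unadjusted p under 0.05, 17 members were higher, against 9.42% of all genes. With the replicate block 7 members were called higher (2.68% of all genes): NEU1, GM2A, ASAH1, CTSB, CTSD, NPC2 and SCARB2. Across the 4 dose comparisons 28 of the 40 members were above 0 in each (70%, against 30.1% of all genes), and IDS alone, by its chosen probe set, was below 0 in each (17.3% of all genes).

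Among the 8 proteases tested, CTSD had the largest averaged change and CTSC the lowest. CTSD encodes cathepsin D, the main aspartic protease of the lysosome. Its value in RS4:11 was 5.52 and 5.41 in vehicle (replicates 1 and 2, in this order throughout), 6.24 and 6.04 at EC50 and 6.65 and 6.16 at 3xEC50. In SEM-K2 it was 5.74 and 5.69 in vehicle, 6.71 and 6.69 at EC50 and 7.35 and 5.98 at 3xEC50. Every treated array was above both vehicle arrays of its line, and the 2 SEM-K2 arrays at 3xEC50 lay furthest apart, the lower one being the array with the raised 3′ to 5′ difference. The averaged change was 0.89 ± 0.22 (SE), with an adjusted p of 0.121 by limma and 0.034 with the replicate block. Without that array CTSD was the 1 member called in SEM-K2 at 3xEC50.

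CTSC encodes cathepsin C (dipeptidyl peptidase 1), which trims and activates serine proteases of immune cells. In SEM-K2 it read 12.01 and 11.89 in vehicle, 11.62 and 11.75 at EC50 and 11.53 and 11.29 at 3xEC50. The treated arrays of SEM-K2 were all lower than its vehicle arrays. In RS4:11 the 6 arrays read 11.17 and 11.20 in vehicle, 11.23 and 11.19 at EC50 and 11.18 and 11.23 at 3xEC50, with no separation. The change in SEM-K2 at 3xEC50 was -0.54 ± 0.14 (unadjusted p = 0.0038 and adjusted p = 0.181 by limma). The averaged change was -0.19 ± 0.09 (adjusted p = 0.355 by limma). These values are of the chosen probe set, and other probe sets of CTSC were below 0 in RS4:11 as well. Their RS4:11 changes at 3xEC50 and EC50 were -0.25 and -0.24, and -0.21 and -0.21, while another gave 0.10 and 0.00. In SEM-K2 these gave, in the same order, -0.23 and -0.25, -0.46 and -0.40, and -0.33 and -0.32.

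The cysteine protease CTSB (cathepsin B) read 8.63 and 8.15 in SEM-K2 vehicle, 9.04 ± 0.050 (mean and SD of the 2 arrays) at EC50 and 9.26 and 9.06 at 3xEC50, a change of 0.77 ± 0.22 at the higher dose (adjusted p = 0.211 by limma and 0.027 with the replicate block). In RS4:11 it read 7.36 and 7.02 in vehicle, 7.50 and 7.20 at EC50 and 7.60 and 7.23 at 3xEC50. By this probe set the treated SEM-K2 arrays lay above the vehicle arrays, whereas in RS4:11 the groups overlapped. Other probe sets of CTSB did not all show this contrast. At 3xEC50 they changed by 0.89, 0.09, 0.37 and 0.40 in SEM-K2 and, in the same order, by 0.56, 0.24, 0.18 and 0.52 in RS4:11. CTSA, the protective protein that holds NEU1 and beta-galactosidase in a complex, had a change of 0.63 in SEM-K2 at 3xEC50 (adjusted p = 0.330). The values were 0.57 (adjusted p = 0.309) for TPP1, a tripeptidyl peptidase, 0.26 for CTSS and 0.46 for CTSZ in the same comparison. CTSH, an aminopeptidase, was under 4 on every SEM-K2 array, so no change is given there, and its value was -0.26 in RS4:11 at 3xEC50. None of these 5 was called in any dose comparison.

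NEU1 was the one gene called among the 9 glycosidases and sulfatases tested. It encodes the lysosomal sialidase, which removes terminal sialic acids from glycoproteins and gangliosides. In SEM-K2 it read 7.73 and 6.86 in vehicle, 8.67 and 8.11 at EC50 and 8.81 and 8.79 at 3xEC50. The RS4:11 arrays read 7.01 and 6.73 in vehicle, 7.62 and 7.60 at EC50 and 7.77 and 7.63 at 3xEC50. All 8 treated arrays were above both vehicle arrays of their line. The rise in SEM-K2 at 3xEC50 was 1.51 ± 0.28 (2.84-fold), with an adjusted p of 0.049 by limma and 0.011 with the replicate block. The averaged rise was 1.04 ± 0.17 (adjusted p = 0.030 by limma), and in RS4:11 the changes were 0.83 at 3xEC50 and 0.74 at EC50, not called.

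The other 8 genes of this group had averaged changes from -0.09 to 0.28 and none was called, so the median of the 9 was 0.05. NAGLU, an enzyme of heparan sulfate breakdown, had the second largest, at 0.28 ± 0.15 (adjusted p = 0.428). HEXA, the alpha subunit of beta-hexosaminidase, followed at 0.19. GAA (acid alpha-glucosidase), GLA (alpha-galactosidase A), GUSB (beta-glucuronidase), MAN2B1 (alpha-mannosidase) and FUCA1 (alpha-fucosidase) had averaged changes of 0.06, 0.00, 0.03, -0.01 and 0.05. IDS, the sulfatase that acts on iduronate in heparan and dermatan sulfate, was lowest at -0.09 ± 0.11 by its chosen probe set, one with the _x_at suffix of probes that can match other sequences. Its 5 other probe sets above 4 on at least 2 arrays went the other way, with averaged changes of 0.07 to 0.36 and 0.01 to 0.99 in SEM-K2 at 3xEC50. The chosen one read 8.22 and 8.24 in RS4:11 vehicle, 8.18 and 8.25 at EC50 and 8.15 and 8.19 at 3xEC50. In SEM-K2 it read 9.06 and 9.53 in vehicle, 9.06 and 9.29 at EC50 and 9.16 and 9.08 at 3xEC50. At EC50 in both lines and at 3xEC50 in SEM-K2 treated and vehicle arrays overlapped, and in RS4:11 at 3xEC50 both arrays were slightly lower than vehicle.

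**Figure D4:**
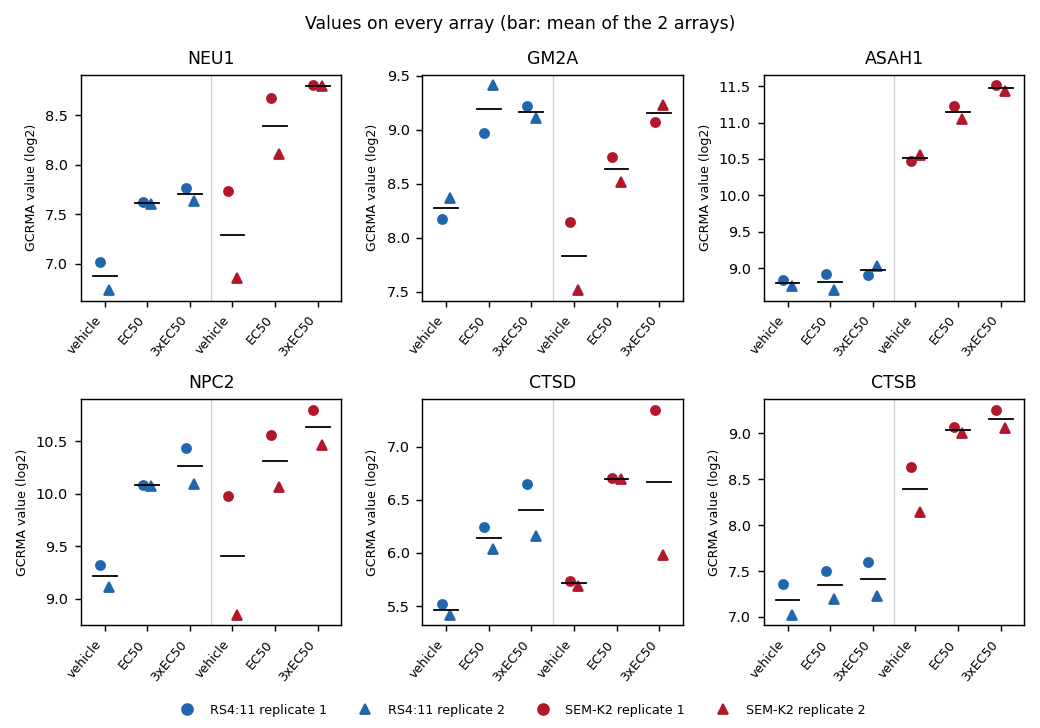
GCRMA values (log2, y axis) of 6 members on all 12 arrays by group (x axis), RS4:11 in blue on the left and SEM-K2 in red on the right of each panel, with circles for replicate 1, triangles for replicate 2 and a bar for the mean of the 2 arrays. NEU1, GM2A, NPC2 and CTSD are higher on every treated array than on both vehicle arrays in either line, while ASAH1 climbs from 10.51 to 11.48 in SEM-K2 and stays between 8.69 and 9.03 in RS4:11.

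Of the lipid enzymes, activators and soluble binding proteins 7 were tested, all with an averaged change above 0. GM2A encodes the GM2 activator, the protein that lifts the ganglioside GM2 out of the membrane for beta-hexosaminidase. In SEM-K2 it read 8.15 and 7.51 in vehicle, 8.75 and 8.52 at EC50 and 9.08 and 9.23 at 3xEC50. In RS4:11 it read 8.18 and 8.37 in vehicle, 8.97 and 9.42 at EC50 and 9.22 and 9.11 at 3xEC50. Treated and vehicle arrays did not overlap in either line. GM2A rose by 1.32 ± 0.23 in SEM-K2 at 3xEC50 (2.49-fold, adjusted p = 0.041 by limma and 0.027 with the replicate block) and by 0.98 ± 0.14 on average (adjusted p = 0.017 by limma). In RS4:11 its changes were 0.89 at 3xEC50 (adjusted p = 0.560) and 0.92 at EC50 (adjusted p = 0.729).

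NPC2, the soluble protein that hands cholesterol from the lumen to NPC1, had the largest averaged change of this group, 1.01 ± 0.20 (adjusted p = 0.066 by limma and 0.0088 with the replicate block). It read 9.98 and 8.84 in SEM-K2 vehicle, 10.55 and 10.07 at EC50 and 10.80 and 10.46 at 3xEC50. Its RS4:11 values were 9.32 and 9.11 in vehicle, 10.08 and 10.08 at EC50 and 10.43 and 10.09 at 3xEC50. Both vehicle arrays of each line lay below all its treated arrays, and the SEM-K2 vehicle arrays were the furthest apart of any group. The change in SEM-K2 at 3xEC50 was 1.22 ± 0.33 (adjusted p = 0.199 by limma and 0.037 with the replicate block).

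ASAH1 encodes acid ceramidase, which splits ceramide into sphingosine and fatty acid. In SEM-K2 it read 10.47 and 10.55 in vehicle, 11.23 and 11.05 at EC50 and 11.52 and 11.43 at 3xEC50. The 3 groups did not overlap, with the higher dose above the lower. In RS4:11 it read 8.83 and 8.76 in vehicle, 8.92 and 8.69 at EC50 and 8.91 and 9.03 at 3xEC50. ASAH1 rose by 0.97 ± 0.14 in SEM-K2 at 3xEC50 (1.95-fold, adjusted p = 0.020 by limma and 0.010 with the replicate block), while its change in RS4:11 was 0.18 at 3xEC50 and 0.01 at EC50. Its probe set carries the suffix (_x_at) by which Affymetrix marks probes that can match other sequences. With such probe sets left out, another probe set of ASAH1 gave 0.95, not called.

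PPT1, a palmitoyl thioesterase, was lowest in this group at 0.07 ± 0.08 on average. It read 11.33 and 11.27 in SEM-K2 vehicle, 11.54 and 11.59 at EC50 and 11.46 and 11.50 at 3xEC50. The RS4:11 values were 11.40 and 11.30 in vehicle, 11.25 and 11.12 at EC50 and 11.25 and 11.45 at 3xEC50. At EC50 the SEM-K2 arrays were above and the RS4:11 arrays below their vehicle. PSAP (prosaposin, precursor of the saposins), GRN (progranulin) and LIPA (acid lipase) had averaged changes of 0.33, 0.32 and 0.19, none called.

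All 7 membrane proteins were tested, and at 3xEC50 in SEM-K2 each had both treated arrays above both vehicle arrays, as did 22.6% of all genes. Some other probe sets were below 0 in that comparison, with values of -0.79 and -0.04 for LAMP1, -0.43 for NPC1 and -0.31 and -0.14 for SCARB2. Within replicate 1 these were, in the same order, 0.14, -0.07, -0.40, 0.33 and 0.24. Within replicate 2, which holds the array with the raised 3′ to 5′ difference, they were -1.72, -0.003, -0.46, -0.94 and -0.52. The remaining probe sets of LAMP1 and SCARB2 above 4 on at least 2 arrays gave 0.19 and 0.16. By the chosen probe sets the median change was 0.65, against 0.06 at the same multiple in RS4:11, and none was called in any dose comparison. CLN3, a membrane protein mutated in juvenile Batten disease, had the largest averaged change, 0.43 ± 0.14 (adjusted p = 0.206). It read 7.10 and 6.90 in SEM-K2 vehicle, 7.39 and 7.63 at EC50 and 7.56 and 7.98 at 3xEC50. In RS4:11 it read 6.89 and 7.28 in vehicle, 7.11 and 7.62 at EC50 and 7.29 and 7.27 at 3xEC50, and the groups overlapped.

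LAMP1, the abundant glycoprotein that lines the lysosomal membrane, had the lowest averaged change of the 7, 0.19 ± 0.13 (adjusted p = 0.551). It read 10.94 and 10.79 in SEM-K2 vehicle, 10.88 and 11.12 at EC50 and 11.05 and 11.65 at 3xEC50. On the RS4:11 arrays LAMP1 read 11.43 and 11.56 in vehicle, 11.49 and 11.73 at EC50 and 11.39 and 11.68 at 3xEC50. In SEM-K2 the 3xEC50 arrays, but not both EC50 arrays, lay above the vehicle arrays, and in RS4:11 all groups overlapped. The changes in SEM-K2 at 3xEC50 were 0.75 for NPC1 (the cholesterol exporter), 0.68 for CD63 (a tetraspanin), 0.65 for MCOLN1 (the calcium channel TRPML1), 0.61 for SCARB2 (LIMP-2, the carrier of glucocerebrosidase) and 0.38 for LAMP2. In RS4:11 at 3xEC50 the values of these genes, in this order, were -0.04, 0.06, -0.05, 0.29 and 0.27. SCARB2 was called in the average only in the limma fit with the replicate block (adjusted p = 0.036 in that fit).

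All 9 pump genes tested had an averaged change above 0, and none was called in any dose comparison or in the average. At an unadjusted p under 0.05, 3 were higher in SEM-K2 at 3xEC50 (8.1% of all genes) and 1 at EC50 (3.97%). None was higher in RS4:11 (2.53% of all genes at 3xEC50 and 2.47% at EC50). ATP6V0D1, a subunit of the membrane sector that couples it to the central stalk, read 9.87 and 9.51 in SEM-K2 vehicle, 10.09 and 10.02 at EC50 and 10.32 and 9.90 at 3xEC50. In RS4:11 it read 9.75 and 9.81 in vehicle, 9.70 and 10.04 at EC50 and 9.89 and 9.94 at 3xEC50. Both SEM-K2 doses and the higher RS4:11 dose cleared the vehicle arrays, and the averaged change was 0.25 ± 0.12 (adjusted p = 0.369).

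In the soluble sector ATP6V1D, a part of the rotating stalk, had the largest averaged change, 0.39 ± 0.11 (adjusted p = 0.175). It read 9.34 and 8.88 in SEM-K2 vehicle, 9.70 and 9.42 at EC50 and 9.60 and 9.68 at 3xEC50, and in RS4:11 9.23 and 9.20 in vehicle, 9.43 and 9.38 at EC50 and 9.72 and 9.46 at 3xEC50. Its treated arrays lay above the vehicle arrays in all 4 comparisons. ATP6V1A, the catalytic subunit, was lowest at 0.01 ± 0.10. It read 9.18 and 9.10 in SEM-K2 vehicle, 9.18 and 9.04 at EC50 and 9.19 and 9.40 at 3xEC50, and in RS4:11 8.82 and 8.77, 8.76 and 8.54, and 8.72 and 9.04. These overlapped except at SEM-K2 3xEC50, where both arrays were above vehicle, and at RS4:11 EC50, where both were below. ATP6V1E1, ATP6V1B2, ATP6V1C1 and ATP6V1H had averaged changes of 0.35, 0.28, 0.23 and 0.16.

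Of the accessory subunits ATP6AP1 had an averaged change of 0.33 ± 0.16 (adjusted p = 0.377) and ATP6AP2, the prorenin receptor, one of 0.05 ± 0.15. ATP6AP1 read 9.61 and 8.77 in SEM-K2 vehicle, 9.67 and 9.70 at EC50 and 9.96 and 9.53 at 3xEC50, and in RS4:11 9.53 and 9.32 in vehicle, 9.53 and 9.61 at EC50 and 9.63 and 9.46 at 3xEC50. ATP6AP2 read 12.05 and 11.99 in SEM-K2 vehicle, 12.14 and 12.17 at EC50 and 12.16 and 11.94 at 3xEC50, and in RS4:11 11.96 and 11.36, 11.87 and 11.39, and 11.94 and 11.52. Both genes overlapped with vehicle at 3xEC50 in either line.

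Counting arrays instead of tests, 26 of the 40 members had both treated arrays above both vehicle arrays in SEM-K2 at 3xEC50 (65%, against 22.6% of all genes) and 24 at EC50 (60%, against 21.8%). In RS4:11 the count was 13 at each dose (32.5%, against 18.4% at 3xEC50 and 17.5% at EC50). In all 4 comparisons this held for 7 members by their chosen probe sets, CTSD, NEU1, PSAP, GM2A, NPC2, ATP6V1C1 and ATP6V1D, and for 3.61% of all genes. Other probe sets of ATP6V1C1 differed in sign in RS4:11. Their changes at 3xEC50 and EC50 there were -0.29 and -0.35, -0.47 and -0.14, and 0.46 and 0.24. Within replicate number 1, which leaves out the array with the raised 3′ to 5′ difference, 34 of 40 members were above 0 for the higher SEM-K2 dose, and their median was 0.29 (0.00 over all genes). Within replicate number 2 the count was 35 and the median 0.60 (0.13 over all genes).

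The calls in SEM-K2 at 3xEC50 rested on few arrays. Shares of all genes called without each array are not given here, so a shift of the members and one of all genes cannot be told apart. Leaving out 1 array at a time, no member was called without the first or the second RS4:11 3xEC50 array, the first SEM-K2 3xEC50 array or the second SEM-K2 vehicle array. Without the first SEM-K2 vehicle array 5 were called (NEU1, GM2A, ASAH1, CD63 and NPC2). Without the second SEM-K2 3xEC50 array CTSD alone was called, and without any of the other 6 arrays ASAH1 alone. In the average NEU1 was called without the first SEM-K2 vehicle, the first SEM-K2 3xEC50 or the second SEM-K2 EC50 array, and lost its call without each of the other 9 (adjusted p up to 0.169 by limma). GM2A lost its averaged call without either RS4:11 vehicle array, the first RS4:11 3xEC50, the first SEM-K2 EC50 or the second SEM-K2 vehicle array (adjusted p up to 0.075 by limma). The changes in SEM-K2 at 3xEC50 stayed between 1.07 and 1.94 for NEU1, 1.00 and 1.64 for GM2A and 0.92 and 1.01 for ASAH1.

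Probe sets other than the chosen ones gave a lower median. Of the 40 members 19 had further probe sets above 4 on at least 2 arrays, 47 in all, and in SEM-K2 at 3xEC50 31 of the 47 had the sign of the chosen one, with a median of 0.24. Within replicate 1 the median of the 47 was 0.35 and 39 were above 0. Within replicate 2, which holds the array with the raised 3′ to 5′ difference, the median was 0.10 and 26 were above 0. The 6 probe sets of GM2A above 4 on at least 2 arrays gave 0.38 to 1.36 within replicate 1 and -1.45 to 1.84 within replicate 2. The 4 probe sets of ASAH1 gave 0.73 to 0.97 over both replicates, and NEU1, NPC2 and CTSD each had 1. At least 1 other probe set had the opposite sign in SEM-K2 at 3xEC50 for ATP6AP2, ATP6V1A, ATP6V1C1, GM2A, HEXA, IDS, LAMP1, NPC1, SCARB2 and TPP1. With the mean of all probe sets of a gene no member was called in SEM-K2 at 3xEC50, and NEU1 alone in the average. The share of all genes called with that mean is not given here.

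Whether the lines responded differently was tested by the interaction of line and dose. No member passed at 3xEC50 (0.0379% of all genes) or at EC50 (0.00947%), and at an unadjusted p under 0.05 3 were higher (2.54% of all genes) and 1 lower (1.16%) in SEM-K2 than in RS4:11 at 3xEC50, and 1 higher at EC50 (1.04%). At 3xEC50 the SEM-K2 change was the larger for 31 of the 40 members, with a median difference of 0.28 (0.05 over all genes). ASAH1 had a difference of 0.79 (95% interval 0.33 to 1.25, adjusted p = 0.739 by limma) and NPC1, by its chosen probe set, one of 0.79 (0.03 to 1.56). Another probe set of NPC1, above 4 on all 12 arrays, fell alike in the lines at 3xEC50, by -0.43 in SEM-K2 and -0.46 in RS4:11. For NEU1 the difference was 0.68 (-0.22 to 1.57) and for NPC2 0.17 (-0.89 to 1.24), intervals that hold both no difference and one as large as the response in RS4:11.

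The step from EC50 to 3xEC50 was tested in each line. No member was called in SEM-K2 or in RS4:11 (0% of all genes in either), and at an unadjusted p under 0.05 1 member, ASAH1, was higher in SEM-K2 (1.19% of all genes) and none in RS4:11 (0.227%). The median step was 0.15 in SEM-K2 and -0.03 in RS4:11. The step in SEM-K2 was 0.34 for ASAH1 (95% interval 0.01 to 0.66), 0.52 for GM2A (-0.01 to 1.04) and 0.41 for NEU1 (-0.22 to 1.04). In RS4:11 that of NEU1 was 0.09 (-0.54 to 0.72).

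Without drug 13 of the 40 members were called different between the lines. Of these 10 were called higher in SEM-K2 vehicle than in RS4:11 vehicle (25%, against 10% of all genes) and 3 lower (9.6% of all genes). The 3 include CTSH, which passed the filter only through RS4:11, so its call cannot be read apart from the filter. CTSH lay furthest apart: it read 7.09 and 6.03 in RS4:11 vehicle and 3.87 and 3.24 in SEM-K2 vehicle, the latter under the level of 4 used as filter. The other RS4:11 arrays read 6.68 and 6.00 at EC50 and 6.44 and 6.16 at 3xEC50, and the other SEM-K2 arrays 3.81 and 3.24, and 3.41 and 3.76. All 6 SEM-K2 arrays were thus under 4 and all 6 RS4:11 arrays above it. CTSH thus passed the filter only through the line in which it is high, and its SEM-K2 level has only a bound. Against the level of 4, the RS4:11 vehicle mean of 6.56 was at least 5.89-fold higher.

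CTSZ, a carboxypeptidase, had the largest difference in the other direction, 1.76 ± 0.54 (adjusted p = 0.049 by limma). The call was lost in 11 of 19 alternatives, which include leaving out any 1 of 9 arrays, with adjusted p up to 0.277 and a value of 0.75 with the mean of its probe sets. It was kept without either SEM-K2 EC50 array or the second SEM-K2 vehicle array. CTSZ read 6.10 and 5.02 in SEM-K2 vehicle, 6.05 and 7.32 at EC50 and 6.23 and 5.81 at 3xEC50, and in RS4:11 4.27 and 3.33, 4.67 and 3.88, and 3.99 and 4.83. Its arrays spread widely within groups, but all 6 SEM-K2 arrays exceeded all 6 RS4:11 arrays, of which 3 were above 4. ASAH1 was higher by 1.71 ± 0.14 (adjusted p = 2.4e-05 by limma), CTSB by 1.20, IDS by 1.06 and PSAP by 1.03. ATP6V1B2 was higher by 0.95, NPC1 and CTSS by 0.90 each, TPP1 by 0.89 and CTSC by 0.76. GUSB was lower by 0.68 and ATP6V1C1 by 0.56. With the replicate block 17 members were called (13.8% of all genes higher and 13% lower), CD63 and SCARB2 (higher) and LAMP1 and MAN2B1 (lower) in addition. Fewer members were called in either direction without the second RS4:11 vehicle array or without the first SEM-K2 vehicle array. The share of all genes called there is not given here.

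**Figure D5:**
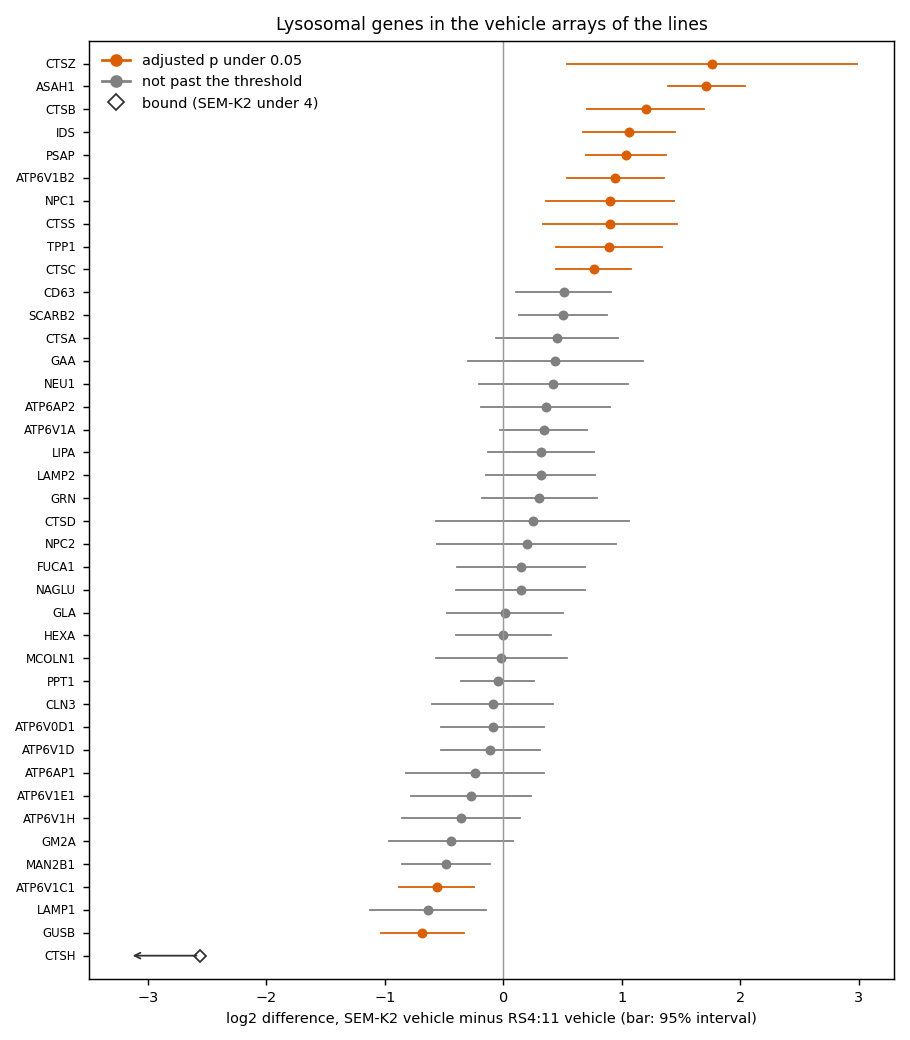
Log2 difference between the vehicle arrays of SEM-K2 and RS4:11 (x axis, positive where SEM-K2 is higher) for each tested member (rows), with the 95% interval from the limma fit. Orange marks members past an adjusted p of 0.05, and the open diamond with an arrow gives CTSH as a bound of -2.56, its SEM-K2 arrays being under 4. CTSZ and ASAH1 lead the other side at 1.76 and 1.71, with a wider interval for CTSZ.

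A second list of 59 lysosome genes outside the 46 had lower median changes than the members. Of the 42 tested, SLC17A5 alone was called after obatoclax, with a larger change in SEM-K2 than any member: it encodes sialin, the exporter of the sialic acid that NEU1 releases. It read 8.47 and 7.97 in SEM-K2 vehicle, 9.72 and 9.98 at EC50 and 10.00 and 10.33 at 3xEC50, and in RS4:11 6.72 and 6.84 in vehicle, 7.57 and 7.84 at EC50 and 7.79 and 7.88 at 3xEC50. It rose by 1.95 ± 0.21 at 3xEC50 (adjusted p = 0.005 by limma) and by 1.63 at EC50 (adjusted p = 0.029) in SEM-K2, and by 1.39 on average (adjusted p = 0.003). The list's median was 0.18 in SEM-K2 at 3xEC50, with 32 of 42 above 0, and 0.08 in RS4:11 at 3xEC50. IDUA (alpha-L-iduronidase) was lowest at -0.84 ± 0.54 in SEM-K2 at 3xEC50 (adjusted p = 0.606). With the replicate block OSTM1 and PLA2G15 joined SLC17A5 in the average.

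Of 8 genes that act in the switch between nutrient signalling and TFEB, FLCN, FNIP2 and RRAGC were called higher in SEM-K2 at 3xEC50 (0.625% of all genes) and in the average (0.644%). FLCN encodes folliculin, which with FNIP1 or FNIP2 acts on RRAGC and RRAGD. It rose by 1.38 ± 0.15 at 3xEC50 (adjusted p = 0.006 by limma) and by 1.10 at EC50 (adjusted p = 0.033) in SEM-K2. FNIP2 rose by 1.04 and RRAGC by 1.03 in SEM-K2 at 3xEC50. In RS4:11 FLCN changed by 0.95 at 3xEC50 and 1.06 at EC50. The RS4:11 changes of FNIP2 were 0.84 and 0.86 and those of RRAGC 0.35 and 0.50, none called. With the replicate block RRAGD was also called, in SEM-K2 at both doses and in the average, and FNIP1 in the average. The mRNAs of TFEB, TFE3 and MITF had changes of 0.43, 0.32 and 0.17 in SEM-K2 at 3xEC50, none called, and the location of these proteins was not measured.

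The change of the members was set beside the promoter letters given above. In SEM-K2 at 3xEC50 the 6 members with the 8-letter core had a median change of 0.56, the 3 with the E-box alone (CTSD, NEU1 and CD63) one of 0.95 and the 20 tested members with neither one of 0.37. GM2A and NPC2, with changes of 1.32 and 1.22, were among those with neither. Over all tested genes the median was 0.13 for the 219 with the core. It was 0.06 both for the 932 with the E-box alone and for the 7578 with no E-box. Among the members with the core the change ran from -0.11 for GAA to 0.77 for CLN3, so the letters were shared by genes near 0 and by genes well above it.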

How the data were processed

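Total RNA from 12 samples of SEM-K2 and RS4:11 cells was measured on Affymetrix U133 Plus 2 arrays. The deposited values are GCRMA values made by the authors, per the submitters' processing notes; no version is given in the sources used here. That they are log2 values is read from their range (0.64 to 16.22) in the deposited table. Array data have no read depth, and their number limits the precision.

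Of 54675 probe sets 41091 carry a single gene symbol in the platform annotation, for 19775 genes. For each gene the probe set with the highest mean was kept, and genes above 4 on at least 2 arrays (10561) were fitted with limma 3.58.1 (lmFit and eBayes, R 4.3.3) as 6 group means over all 12 arrays. P-values were adjusted by Benjamini-Hochberg over all genes tested and called under 0.05. The procedure was tested on simulated data with independent noise on each array. That simulation left out the correlation of same-numbered arrays described below, so it cannot show how the calls behave under it. Members and lists were chosen with earlier results of these data known. Values on every array are given for members called in a dose comparison or the average, for the highest and lowest averaged change in each role and for the largest vehicle difference in each direction. Those of CTSB were added after its values were seen.

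Replicate numbers were checked as a pairing. Deviations of same-numbered arrays from their group means correlated at 0.19 to 0.60 in all 15 pairs of groups. The pairing is thus read from the data and is not given by the labels. The main fit was made without the block, so its p-values leave this pairing out. Members whose call the block changes are named, and the adjusted p with the block is given for only some of these calls. Alternatives were other filters, median centring, the mean of probe sets, leaving out _x_at probe sets, trend and robust settings, each line alone, and leaving out each array.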

Additional observations from a re-analysis of the deposited data

Results flagged for a closer look

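PPT1, the palmitoyl thioesterase, moved in opposite directions in the lines at EC50. Both SEM-K2 arrays were above their vehicle arrays and both RS4:11 arrays were below theirs, and the difference between the responses was 0.42 on the log2 scale. The interaction test did not call it (unadjusted p = 0.054 and adjusted p = 1.00 by limma).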

How the results depend on the processing

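Counts of members called were the results that moved most. In SEM-K2 at 3xEC50 (3 called) the count was 5 with the replicate block, 0 with the mean of all probe sets of a gene, 1 with no filter on low values, 0 with each line fitted alone, and 0 to 5 when each array was left out. In the average (2 called) it was 7 with the replicate block, 1 with the mean of probe sets, 0 with no filter, 4 with trend and robust settings, and 0 to 3 when each array was left out. The vehicle comparison (13 called) gave 7 to 13 members when each array was left out. The median of the hydrolases and membrane proteins in SEM-K2 at 3xEC50 was 0.25 with the mean of probe sets, and at EC50 it ranged from 0.20 to 0.38 when each array was left out. The pump median in SEM-K2 at 3xEC50 was 0.28 with the mean of probe sets and 0.16 to 0.52 when each array was left out. Over all alternatives the adjusted p in SEM-K2 at 3xEC50 ranged from 0.010 to 0.158 for ASAH1, 0.011 to 0.293 for NEU1 and 0.021 to 0.582 for GM2A. No result reversed. Beyond the calls named in the text, the replicate block changed no other call of a member. The cause of these shifts was not tested. Apart from the replicate block, the shares of all genes called under these settings, or when an array was left out, are not given. A shift of the members and one of all genes therefore cannot be told apart in these counts. With 2 arrays a group, small differences cannot be resolved.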
